A study of Mus musculus with 7 samples.

Results

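BYBX-treated MII oocytes were compared with GV oocytes in 4 Smart-seq2 libraries out of the 7 of the series, 2 in each group, and the comparison asked which kinds of maternal transcript still fell, stayed near the GV level or rose when RNA G-quadruplexes (rG4s) were held in place during maturation. GV oocytes are fully grown oocytes arrested at prophase I with an intact germinal vesicle, and MII oocytes are arrested at the second meiotic metaphase. BYBX is a small-molecule ligand that binds and stabilizes rG4s. In the study, fewer oocytes released the first polar body as the BYBX concentration rose, and those that did had abnormal spindles. How far the oocytes of the treated libraries had matured is not given in the sources used here. The ligand and incomplete maturation therefore cannot be told apart in this comparison. The libraries were titled GV_1, GV_2, MII+BYBX_1 and MII+BYBX_2, and the members were taken from those titles. Each library held 10 oocytes from 4-week-old mice primed with PMSG for 44 h. GV oocytes carried the labels Control and no treatment, whereas the study's methods describe DMSO for control GV oocytes too, so whether the GV libraries had the solvent is unclear. BYBX-treated oocytes carried the labels Treat and BYBX, and both groups came from ovary. Culture with BYBX in M16 medium lasted 16 h, and the dose for these libraries was not given in the sources used here. The other 3 libraries, MII oocytes with the solvent DMSO, gave the level reached without the ligand.

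A fully grown oocyte makes almost no new RNA, so its levels of mRNA from GV to MII are set by storage, degradation and changes in the poly(A) tail. Resumption of meiosis activates dormant mRNAs that carry cytoplasmic polyadenylation elements (CPEs) in the 3′ UTR, and their products, such as the CCR4-NOT adaptor Btg4, direct the removal of transcripts that served oocyte growth. An rG4 is a stack of guanine tetrads that a guanine-rich RNA can fold into, and helicases such as Dhx36 unwind it.

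The values were FPKM that had been scaled to an ERCC spike-in, so they are on a per-oocyte scale as deposited, and they were analysed as log2(FPKM + 1). The 9770 entries whose mean of the GV and BYBX group means reached 1 FPKM were tested. Total FPKM was 489569 and 402113 in GV and 246710 and 201482 with BYBX, a ratio of group means of 0.503. The 12 oocyte markers all reached 1 FPKM in these libraries, and the summed FPKM of 14 granulosa and cumulus markers was 14.8 and 7.58 in GV and 3.67 and 3.22 with BYBX, with Ptx3 and Tnfaip6 at 0 in all 4 libraries. Of the 14, 4 reached 1 FPKM, and all of these were lower with BYBX. Inha measured 5.48 and 1.94 FPKM in GV and 0.179 and 0.159 FPKM with BYBX. Group means in GV and with BYBX were 3.34 and 1.61 FPKM for Cyp19a1, 1.53 and 0.266 FPKM for Hsd17b1 and 1.07 and 0.635 FPKM for Kitl. The remaining marker lists, 10 of erythrocytes and 6 of leukocytes, summed to at most 1.73 FPKM in any library.

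Most transcripts were lower with BYBX than in GV. Of the 9770 entries, 6821 (69.8%) were lower, 28 (0.287%) were higher and 1770 (18.1%) were within 2-fold of GV, with limma and a Benjamini-Hochberg adjusted p under 0.05 for the first pair and a 95% interval of the difference inside 2-fold for the last. The last class is called held below, and 112 entries were both lower and held. The median difference was -0.96 on the log2(FPKM + 1) scale, and the median entry stood at 42.9% of its GV level. Median levels over the tested entries were 3.76 and 3.45 in the GV libraries and 2.64 and 2.52 in the BYBX-treated libraries, so the groups did not overlap, although an exact two-sided permutation test of 2 against 2 libraries cannot give a p under 0.33. In the DMSO libraries the same medians were 1.26, 1.34 and 1.38. An oligo-dT primer made the cDNA, so a loss of RNA and a loss of poly(A) tail cannot be told apart in these values, nor can fewer intact oocytes and less RNA per oocyte.

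Only 410 entries fell at least 4-fold and 11 at least 8-fold. Both BYBX-treated libraries lay below both GV libraries for 8061 entries (82.5%) and above both for 77 (0.788%). By quintile of level the share of lower entries ran from 68.0% to 71.5%, whereas the held share was 31.5% in the lowest quintile and between 12.5% and 18.0% in the others. Differences of entries near 1 FPKM are compressed by the pseudocount. The counts rested on the deposited scale. After median centring, 1262 entries (12.9%) were lower and 1512 (15.5%) higher, and at the same total FPKM 1287 (13.2%) were lower and 484 (4.95%) higher. The held count was 824 without GV_2 and 1060 without BYBX_1, and the count of rises was 14 without GV_2, 43 without DMSO replicate 1 and 111 without BYBX_2.

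**Figure D1:**
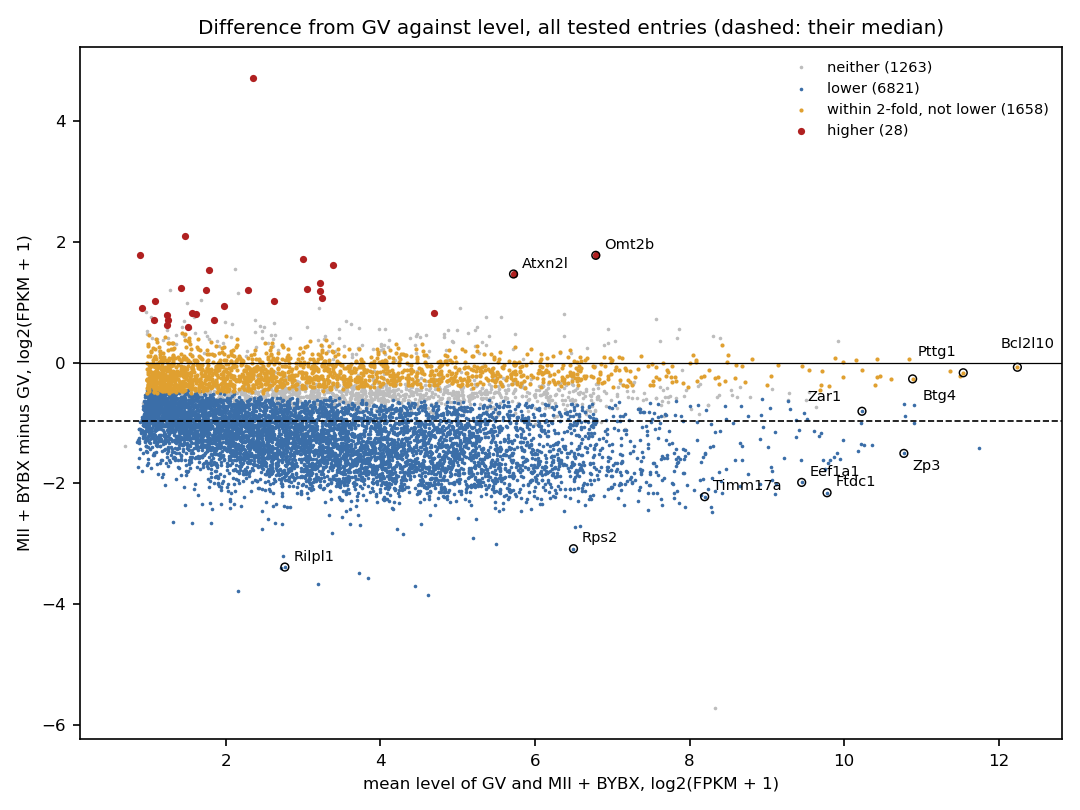
Each point is one of the 9770 tested entries, with its mean level in GV and BYBX-treated oocytes on the x axis and its difference on the y axis, both in log2(FPKM + 1). Lower entries fill the band around the dashed median of -0.96 at all levels, and held entries, among them the abundant Bcl2l10 and Pttg1, lie just under 0.

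The most abundant held transcripts included several of known oocyte function. Bcl2l10, an oocyte-abundant member of the Bcl2 family, measured 5037 and 4900 FPKM in GV and 6022 and 3683 FPKM with BYBX. The BYBX-treated libraries lay on either side of the GV pair, and the difference was -0.08 with a 95% interval from -0.67 to 0.52. Pttg1, which encodes the separase inhibitor securin, measured 3099 and 3214 FPKM in GV and 3404 and 2316 FPKM with BYBX. Btg4 measured 2090 and 2062 FPKM in GV and 2054 and 1443 FPKM with BYBX, a difference of -0.27 ± 0.26 (SE), and both treated libraries were below the GV pair. The oocyte linker histone H1f8 stood at 2964 and 2603 FPKM in GV and at 2818 and 2234 FPKM with BYBX, and the groups overlapped. The other 4 of the 8 most abundant held entries were Zbed3 (-0.22), a partner of the subcortical maternal complex, Bpgm (0.06), the bisphosphoglycerate mutase, AU022751 (-0.28) and Rfpl4 (-0.22), a ret finger protein-like gene. In MII oocytes with DMSO the mean of these 8 transcripts ranged from 852.1 FPKM for AU022751 to 4431 FPKM for Bcl2l10.

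Of these 8 transcripts, 7 carried a CPE, here TTTTAT or TTTTAAT on the transcript strand, within the last 100 bases of the longest GENCODE transcript, and Pttg1 did not. The windows below are 30 bases of the 3′ UTR around the CPE nearest the end, on GRCm38, with the CPE and any AATAAA polyadenylation signal in capitals. They are shown because a CPE was present in a larger share of held transcripts (29.7%) than of all transcripts (20.2%), as given with the sequence features. Bases were read from Btg4 (chr9:51119805-51119834, plus strand), H1f8 (chr6:115950165-115950194, plus strand), Bcl2l10 (chr9:75351587-75351616, plus strand), Zbed3 (chr13:95337812-95337841, plus strand), Bpgm (chr6:34505580-34505609, plus strand), Rfpl4 (chr7:5109902-5109931, minus strand) and AU022751 (chrX:6081219-6081248, minus strand).
Btg4: ccctTTTTATgtctttttaaaagtttgatt
H1f8: aagcTTTTATtgtctaataagctgtcacaa
Bcl2l10: acatTTTTAATaacttcaaattcttaataa
Zbed3: tttttTTTTAATAAAcTTTTATttatctgc
Bpgm: tccaTTTTATAATAAAacgggcctttggtg
Rfpl4: tcctTTTTATttgctataatattagtgtat
AU022751: tAATAAAgtaagTTTTATtttaaaaattta
In Zbed3 the 7-base CPE overlaps the polyadenylation signal, and in Bpgm the CPE abuts it.

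Among the rises, 9 entries met the rule of at least 10 FPKM and no overlap between the groups, against 3756 falls. The largest was Omt2b, an oocyte maturation gene, at 59.9 and 57.6 FPKM in GV and 265.6 and 155.7 FPKM with BYBX. Its difference of 1.77 ± 0.43 had an adjusted p of 0.00278 (limma), and all 3 DMSO libraries were also above GV, at 117.4, 350.1 and 281.1 FPKM. Cphx1, a homeobox gene named for cytoplasmic polyadenylation, measured 4.34 and 2.68 FPKM in GV and 14.3 and 12.8 FPKM with BYBX, a difference of 1.71. The name is listed 3 times in the tables, and the other entries did not pass the test (-0.79 and -0.17). Atxn2l, a paralogue of ataxin-2, was the second most abundant of the named rises at 41.4 and 22.8 FPKM in GV and 120.7 and 62.4 FPKM with BYBX, a difference of 1.47. Both treated libraries were above both GV libraries for each of these genes, which the rule that chose them required. The other named rises were Lzts1 (1.62), Smim11 (1.32), the mitochondrial branched-chain aminotransferase Bcat2 (1.21), the glucose-sensing factor Mlxip (1.18) and the Wnt feedback inhibitor Axin2 (1.07). For Bcat2 the DMSO libraries, at 2.66, 3.77 and 5.11 FPKM, stayed below the treated pair at 15.0 and 8.97 FPKM.

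Of the 8 largest rises, 4 carried a CPE in the last 100 bases and 3 an rG4 motif, searched on the transcript strand as 4 G runs, each 3 G or longer, whose loops span 1 to 7 bases. Among all entries with a coding transcript, 18.9% carried an rG4 motif, and 20.2% of those with a 3′ UTR of 100 bases carried a CPE. Counts among 8 entries are too small to show a link between motif and rise. The CPE window of Omt2b (chr9:78329563-78329592, plus strand) and the motifs of Atxn2l (3′ UTR, chr7:126491974-126491998, minus strand) and Mlxip (5′ UTR, chr5:123394830-123394847, plus strand) are given as the plainest cases, with the CPE, the polyadenylation signals and the G runs in capitals.
Omt2b: acggTTTTATAATAAATAAAagtttcaggc
Atxn2l: GGGccGGGctGGGGtccaacGGGGG
Mlxip: GGGccGGGccGGGtcGGG
The largest difference among all rises was that of Mir6516, at 676.7 FPKM in BYBX_2 and 0 in the other 3 libraries compared, so its call rests on 1 library.

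**Figure D2:**
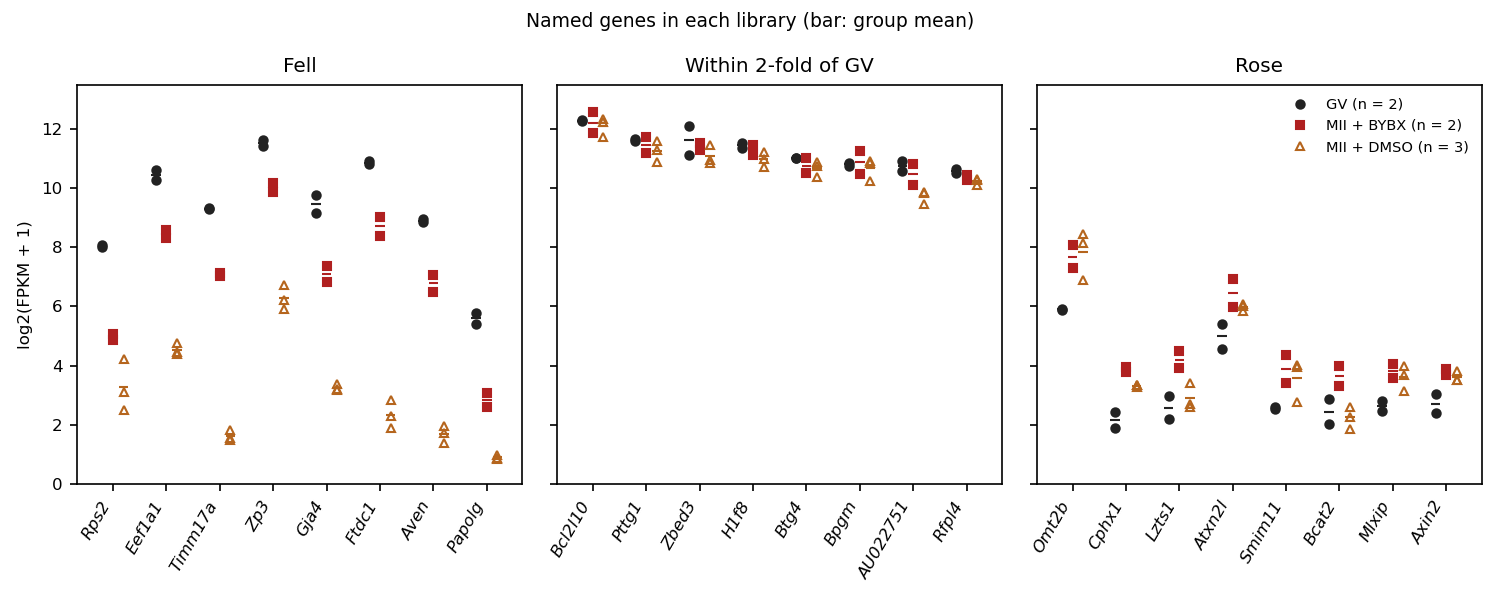
Points are single libraries and bars are group means, in log2(FPKM + 1), for 8 transcripts each that fell, were held or rose with BYBX. In the left panel the BYBX-treated libraries sit between GV and DMSO, and in the middle panel the groups lie close together. In the right panel both treated libraries are above GV, as the rule that chose these genes required.

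The largest falls included several whose libraries disagreed. Cphx3 occupies 3 of the 10 largest falls under a repeated name, and its most abundant entry measured 86.7 and 97.4 FPKM in GV and 37.6 and 0.0772 FPKM with BYBX, so its difference of -3.85 rests on BYBX_2. Rps27 was at 1.60 and 105.3 FPKM in the GV pair, and Rpl7a at 74.0 and 13.1 FPKM, so the size of both falls is uncertain, and both have near-identical copies in the genome. The libraries agreed for Rilpl1, at 22.9 and 19.2 FPKM in GV and 1.02 and 1.20 FPKM with BYBX (-3.38 ± 0.21, adjusted p = 5.15e-06 by limma), Rps2, at 266.7 and 257.5 FPKM in GV and 27.9 and 32.5 FPKM with BYBX, and Dydc2, at 42.8 and 43.3 FPKM in GV and 1.5 and 5.22 FPKM with BYBX. For these genes the groups were far apart. Xdh, the xanthine dehydrogenase, fell by 3.40 on the log2 scale. None of the 7 of these 10 entries whose 3′ UTR spans 100 bases carried a CPE there, and none of the 10 had an rG4 motif. Transcripts were matched by name, so the 3 Cphx3 entries count the same transcript. Among all entries the shares were 20.2% with a CPE and 18.9% with an rG4 motif. So few entries cannot be set apart from these shares.

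To see which kinds of transcript moved together, 44 gene lists with at least 5 tested entries were ordered by their median difference. They cover 1863 of the tested entries (19.1%), counting 1 more list of small RNA genes with 1 tested entry. Every one of the 44 medians was below 0. They ran from -1.52 for mitochondrial ribosomal proteins to -0.34 for the Obox, Oogenesin, Tcl1b, Oas1, Oosp and Omt2 families, around the median of -0.96 over all entries. Of the 24 lists under that median, 17 stayed under it in all 17 alternative analyses. Of the 20 lists above it, 11 stayed above it in the 16 alternatives that kept a filter on level and 2, the histones with their chaperones and the Obox list, also without a filter. Some of these alternatives could not move a list against that median. They were median centring and the fits that changed only the replicate block, the intensity trend or the DMSO libraries included. Only the other alternatives are a check of the side on which a list lay. A list is described here by counts and medians and was not tested against other genes.

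**Figure D3:**
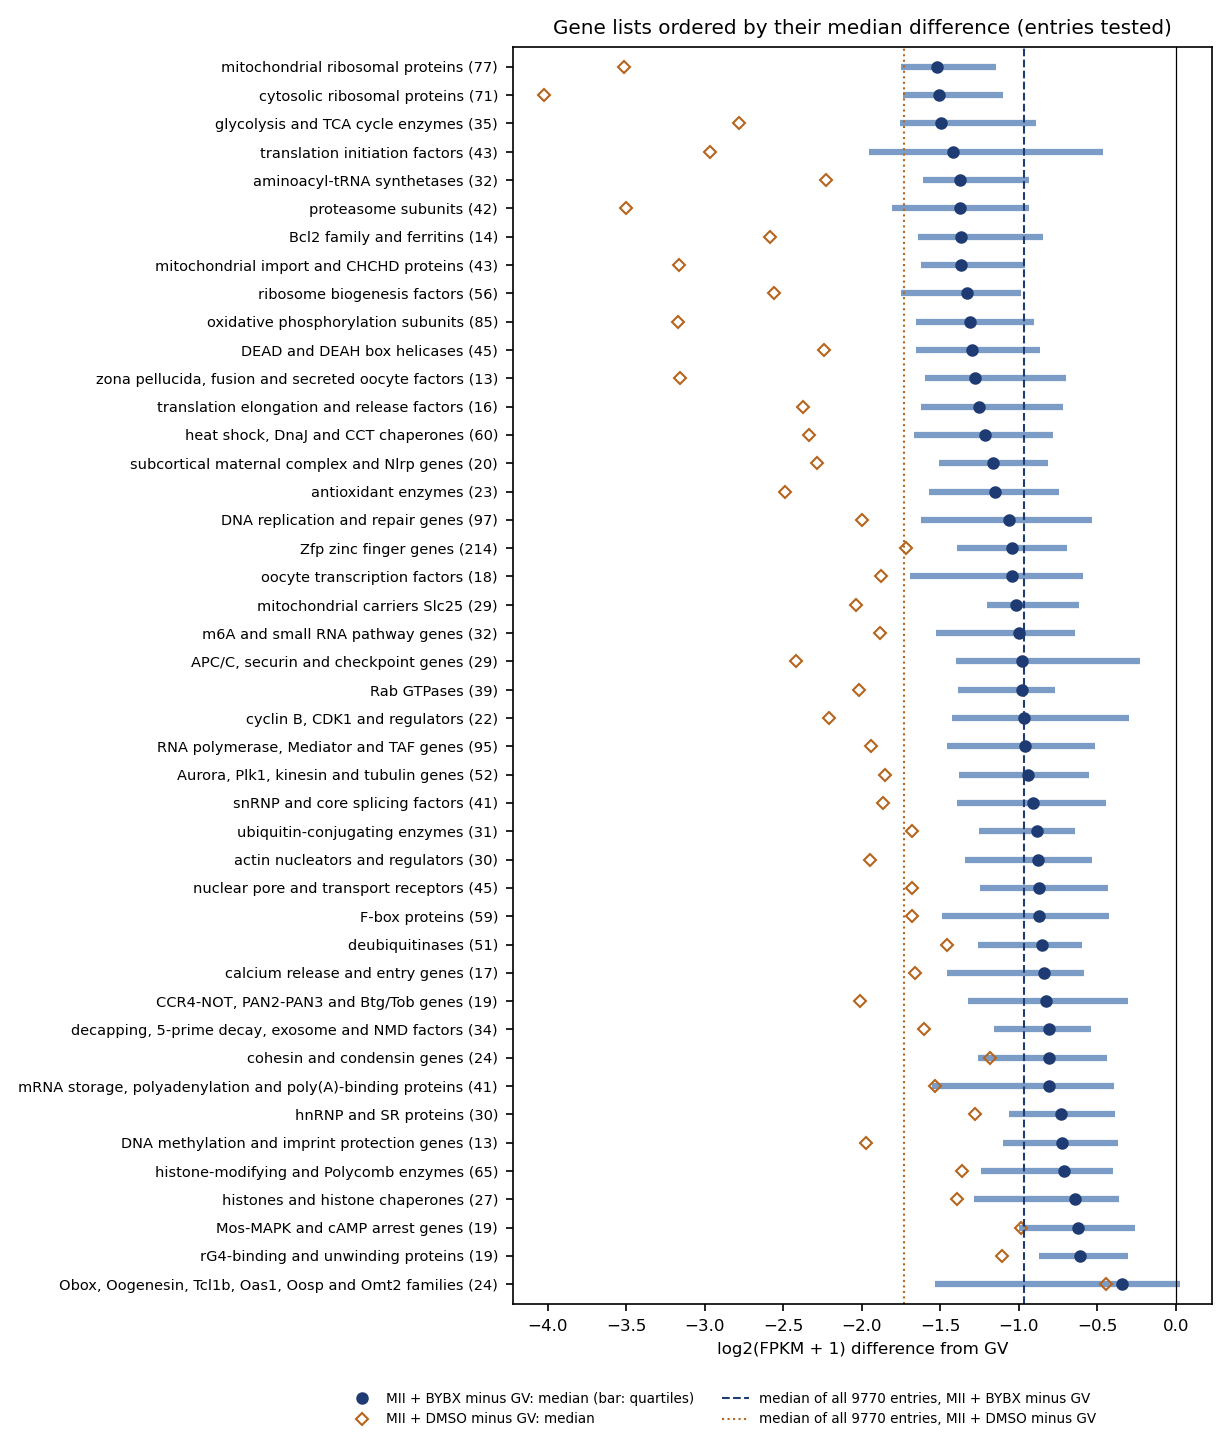
Filled points are the median differences of 44 gene lists between BYBX-treated MII and GV oocytes, bars their quartiles, and open diamonds the median differences of MII with DMSO from the same GV libraries, in log2(FPKM + 1). Lists of ribosomal, mitochondrial and proteasome genes lie left of the dashed median of all entries, and histones, meiotic arrest genes, rG4-binding proteins and the oocyte families lie right of it.

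Lists of protein synthesis genes all had medians below that of all entries. Of 71 tested cytosolic ribosomal protein entries, 61 were lower (85.9%), 2 were held and none was higher, with a median of -1.51. Of all entries, 69.8% were lower and 18.1% held. Rpl10, the most abundant member, measured 587.6 and 583.4 FPKM in GV and 390.4 and 256.1 FPKM with BYBX, and Rps15a was held at 10.6 and 11.2 FPKM against 10.8 and 7.36 FPKM. Their summed FPKM made up 1.70% and 2.10% of the total in GV and 1.49% and 1.24% with BYBX. Ribosome biogenesis factors fell in 49 of 56 entries with a median of -1.33, led by Emg1, a pre-rRNA methyltransferase, at 235.1 and 223.8 FPKM in GV and 52.8 and 46.6 FPKM with BYBX. The nucleolar chaperone Npm1 was the most abundant of them and did not pass the test (-0.46, adjusted p = 0.185). Aminoacyl-tRNA synthetases fell in 26 of 32 entries, with a median of -1.38.

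Initiation factors were spread widely. They had a median of -1.42 and quartiles of -1.95 and -0.46, and 30 of 43 entries were lower (69.8%) and 7 held (16.3%), close to the 69.8% and 18.1% of all entries. Eif3m, a subunit of the eIF3 complex, measured 201.6 and 184.9 FPKM in GV and 33.0 and 36 FPKM with BYBX, a fall of 2.45. Eif1, which acts in start codon selection, stood at 141.5 and 120.9 FPKM in GV and at 194.5 and 99.9 FPKM with BYBX, so the treated pair enclosed the GV pair. The share of the list in the total overlapped between the groups, at 0.844% and 0.864% in GV and 0.871% and 0.824% with BYBX. Elongation and release factors fell in 13 of 16 entries, and Eef1a1, which delivers aminoacyl-tRNA to the ribosome, dropped from 1554 and 1243 FPKM to 318.4 and 386.7 FPKM. With DMSO its mean was 22.4 FPKM.

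Nuclear-encoded mitochondrial genes fell in a similar way. Mitochondrial ribosomal proteins had the highest share of lower entries, 73 of 77 (94.8%, beside 69.8% of all entries), and 1 held entry. Mrpl12 was both the most abundant and the most changed, at 337.5 and 308.6 FPKM in GV and 53.5 and 71.9 FPKM with BYBX. Subunits of oxidative phosphorylation were lower in 69 of 85 entries with a median of -1.31. Ndufa9 of complex I fell by 2.2, whereas Cox6b2, a cytochrome c oxidase subunit of germ cells, measured 33.4 and 37.6 FPKM in GV and 69.9 and 52.7 FPKM with BYBX and missed the threshold (0.76, adjusted p = 0.0598). Import and CHCHD proteins fell in 33 of 43 entries (76.7%), nearer the share of all entries. Timm17a, a channel subunit of the inner membrane translocase, went from 637.6 and 625.5 FPKM to 140.5 and 129.5 FPKM. The Slc25 carriers sat close to the median of all entries, at -1.02.

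Glycolysis and TCA cycle enzymes had a low median, whereas their summed FPKM rested largely on Ldhb. Their median was -1.49, and 29 of 35 entries were lower, with the triose phosphate isomerase Tpi1 falling by 1.99. The most abundant member, the lactate dehydrogenase subunit Ldhb, was held at 1579 and 1400 FPKM in GV and 1218 and 1306 FPKM with BYBX. The summed FPKM of the list took a larger share of the total with BYBX (0.714% and 0.915%) than in GV (0.685% and 0.668%). The sum itself was 3354 and 2686 FPKM in GV and 1761 and 1843 FPKM with BYBX. Ldhb made up most of it with BYBX, so the larger share rested on this gene and not on the other members. Antioxidant enzymes were lower in 17 of 23 entries (73.9%), near the 69.8% of all entries. Glutaredoxin Glrx fell from 925.0 and 715.0 FPKM to 197.6 and 197.9 FPKM, and the peroxiredoxin Prdx1 went from 890.5 and 879.7 FPKM to 651.3 and 609.8 FPKM without passing the test (-0.49, adjusted p = 0.0807).

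Proteasome subunits and chaperones fell in most entries. Proteasome subunits were lower in 36 of 42 entries (85.7%, beside 69.8% of all entries) with a median of -1.37. The ATPase subunit Psmc1 fell by 2.34 and Psmd4, a ubiquitin receptor, from 598.2 and 524.3 FPKM to 169.0 and 127.0 FPKM, whereas Psmd3 was held at 87.5 and 62.0 FPKM in GV and 86.1 and 60.2 FPKM with BYBX. Chaperones were lower in 51 of 60 entries, and Hspa8 fell from 700.9 and 389.9 FPKM to 76.2 and 140.4 FPKM. The medians of F-box proteins (-0.87), deubiquitinases (-0.85) and ubiquitin-conjugating enzymes (-0.89) lay near that of all entries. Relative to it, the F-box list was at 0.09 and, without BYBX_2, at -0.04, and the ubiquitin-conjugating list was at 0.08, at -0.08 without BYBX_1 and at -0.01 without GV_1. F-box proteins had 37 of 59 entries lower (62.7%) and 12 held (20.3%), near the 69.8% and 18.1% of all entries. Fbxw28, the most abundant of them, measured 3008 and 2430 FPKM in GV and 1253 and 1446 FPKM with BYBX.

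Genes of mRNA deadenylation and decay had medians slightly above that of all entries, and both lists changed side when 1 library was left out. Relative to all entries, the CCR4-NOT list was at 0.14 with all libraries, at -0.19 without BYBX_1 and at -0.10 without GV_1, and the decapping and decay list was at 0.15 and, without BYBX_1, at -0.07. Of 19 CCR4-NOT, PAN2-PAN3 and Btg/Tob entries, 9 were lower (47.4%) and 5 held (26.3%), beside 69.8% and 18.1% of all entries. Cnot9 fell from 64.9 and 49.3 FPKM to 12.4 and 12.7 FPKM, and Tob1, an antiproliferative adaptor of the complex, fell by 1.72. Cnot7, a catalytic subunit, measured 153.9 and 109.4 FPKM in GV and 89.7 and 104.2 FPKM with BYBX (-0.42, adjusted p = 0.220), and its paralogue Cnot8 was held at -0.27. With the abundant Btg4 in it, the list made up 0.581% and 0.665% of total FPKM in GV and 1.01% and 0.894% with BYBX. Decapping, 5′ decay, exosome and nonsense-mediated decay factors had a median of -0.81, from Dis3l (-2.52), an exosome-associated nuclease, to Upf1 (0.46, adjusted p = 0.236), the helicase of nonsense-mediated decay.

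The rG4-binding and unwinding proteins had a median of -0.61, with 9 of 19 entries lower (47.4%) and 5 held (26.3%). Of all entries, 69.8% were lower and 18.1% held. Dhx36, the helicase that resolves G-quadruplexes, measured 6.38 and 6.43 FPKM in GV and 3.42 and 4.02 FPKM with BYBX, a difference of -0.65 ± 0.25 with an adjusted p of 0.0334 (limma). Both treated libraries were below GV, the DMSO mean was 3.21 FPKM, and the difference at the same total FPKM was 0.16. Aven, an RGG-motif protein that binds rG4s, fell most, from 490.1 and 465.6 FPKM to 132.8 and 88.97 FPKM. Hnrnpf (-0.22) and Hnrnph1 (-0.06), whose proteins bind G-rich RNA, were held, as were the helicases Eif4a1 (-0.27), Eif4a2 (-0.34) and Ddx17 (0.25). DEAD and DEAH box helicases as a whole were lower in 36 of 45 entries with a median of -1.30.

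Storage, polyadenylation and poly(A)-binding genes ranged widely around a median of -0.81, with 27 of 41 entries lower (65.9%) and 9 held (22.0%), beside 69.8% and 18.1% of all entries. The poly(A) polymerase Papolg fell from 53.9 and 41.4 FPKM to 5.06 and 7.48 FPKM. Zar1, an oocyte protein that stores maternal mRNA, measured 1774 and 1420 FPKM in GV and 1070 and 769.6 FPKM with BYBX, a difference of -0.81 (adjusted p = 0.0173), and 307.6 FPKM on average with DMSO. At the same total FPKM its difference was 0.19. Pabpn1l, the embryonic poly(A)-binding protein gene, stood at 190.6 and 154.1 FPKM in GV and 130.2 and 79.4 FPKM with BYBX (-0.75, adjusted p = 0.0525). Pabpn1 differed between the treated libraries, at 90.3 and 22.6 FPKM against 26.5 and 34.0 FPKM in GV. Core splicing factors had a median of -0.91 and hnRNP and SR proteins of -0.73, and the small nuclear ribonucleoprotein gene Snrpe measured 21.8 and 24.2 FPKM in GV and 62.1 and 30.8 FPKM with BYBX without passing the test (adjusted p = 0.0726).

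Genes known for the oocyte itself did not behave as one group. Zona pellucida, fusion and secreted factors were lower in 10 of 13 entries (76.9%, beside 69.8% of all entries) with a median of -1.28. Zp3, the zona glycoprotein that sperm bind, went from 3124 and 2773 FPKM to 1144 and 941.5 FPKM, and to a mean of 79.5 FPKM with DMSO, while Astl, the protease ovastacin that hardens the zona, was held at 470.5 and 376.2 FPKM against 395.6 and 313.1 FPKM. The gap junction gene Gja4 fell most, by 2.38. Gdf9, the oocyte growth factor, measured 2875 and 2080 FPKM in GV and 1686 and 1348 FPKM with BYBX, a difference of -0.70 (adjusted p = 0.0238), or 0.29 at the same total FPKM. Subcortical maternal complex and Nlrp genes were lower in 16 of 20 entries (80%), and Zbed3 and Khdc1c were held.

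The Obox, Oogenesin, Tcl1b, Oas1, Oosp and Omt2 families had the largest held share of any list, 9 of 24 entries (37.5%), beside 9 lower and 1 higher. Of all entries, 18.1% were held and 69.8% lower. The list was also nearer GV than all entries without the ligand, with a median difference of -0.45 for DMSO from GV, beside -1.73 over all entries. The families of this list differed. Oas1c, Oas1e and Oas1h fell by 1.77, 1.46 and 2.13, and Oog1, Oog2 and Oog4 by 2.02, 2.06 and 1.86. Tcl1b1 (-0.06), Tcl1b2 (-0.36), Tcl1b3 (0.29) and Tcl1b4 (-0.33) were held, as were Obox1 (0.02), Obox5 (-0.12), Oosp1 (0.06) and Oosp3 (-0.04), with Oas1d (-0.12). Oosp1 measured 1306 and 1381 FPKM in GV and 1734 and 1136 FPKM with BYBX, and Oas1e 2221 and 1655 FPKM against 746.0 and 653.9 FPKM. The list accounted for 2.79% and 2.83% of total FPKM in GV and 4.28% and 4.08% with BYBX. After median centring, 13 of its 24 entries were higher and 5 lower, beside 15.5% and 12.9% of all entries.

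The regulators of meiosis included both held and lower transcripts. Of 29 APC/C, securin and checkpoint entries, 17 were lower (58.6%) and 8 held (27.6%), beside 69.8% and 18.1% of all entries. The APC/C activator Cdc20 measured 225.5 and 149.2 FPKM in GV and 191.1 and 169.3 FPKM with BYBX (-0.03), and Bub1b (-0.23) and Mad2l1 (-0.19) were held. The kinases Ttk and Bub1 fell by 2.18 and 1.96. Of 22 cyclin B, CDK1 and regulator entries, 13 were lower (59.1%) and 6 held (27.3%). Ccnb1, cyclin B1, measured 838.1 and 553.4 FPKM in GV and 348.9 and 466.4 FPKM with BYBX (-0.75, adjusted p = 0.0306, or 0.24 at the same total FPKM), and Cdk1 fell from 8.30 and 8.41 FPKM to 1.86 and 2.28 FPKM.

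Mos-MAPK and cAMP arrest genes had a median of -0.62, with 9 of 19 entries lower (47.4%) and 5 held (26.3%). Of all entries, 69.8% were lower and 18.1% held. Mos, the kinase that sustains arrest at MII, was held at 283.1 and 209.7 FPKM in GV and 182.2 and 233.8 FPKM with BYBX (-0.24), while Gpr3, the receptor that keeps cAMP high in GV oocytes, fell by 1.22. Aurora, Plk1, kinesin and tubulin genes were near the median of all entries at -0.94. Birc5, survivin of the chromosomal passenger complex, dropped from 1783 and 1658 FPKM to 725.0 and 444.1 FPKM, and the tubulins Tubb4b and Tubb3 parted, at -2.23 and 0.08. Cohesin and condensin genes had 14 of 24 entries lower (58.3%) and 7 held (29.2%), beside 69.8% and 18.1% of all entries, and Smc4 of condensin fell from 190.6 and 184.0 FPKM to 92.7 and 83.9 FPKM. Actin regulators (-0.88) and Rab GTPases (-0.98) were near the median.

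Chromatin genes lay in the upper part of the order. Of 27 entries of histones and histone chaperones, 13 were lower (48.1%) and 7 held (25.9%), beside 69.8% and 18.1% of all entries. Their median was -0.64, 0.33 above that of all entries. Npm2, the maternal nucleoplasmin, fell from 2145 and 2065 FPKM to 1151 and 582.3 FPKM and H2ax by 1.95, while H1f8 was held. The share of the list in the total went from 1.85% and 1.96% to 2.61% and 2.50%. Histone-modifying and Polycomb enzymes had 19 of 65 entries held (29.2%) and 39 lower, from Kat8 (-2.36), an acetyltransferase of histone H4, to Kmt2c (0.03), a methyltransferase of histone H3. DNA methylation and imprint genes had a median of -0.72, and Zfp57, which protects imprints, went from 1433 and 1071 FPKM to 714.6 and 402.0 FPKM.

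DNA replication and repair genes (-1.06), RNA polymerase, Mediator and TAF genes (-0.96) and Zfp zinc finger genes (-1.04) followed the median of all entries. The repair factor Xrcc6 fell by 2.32, and Gmnn, an inhibitor of replication licensing, was held at 57.0 and 54.7 FPKM in GV and 68.3 and 56.1 FPKM with BYBX. Med30 of Mediator was held as well, with the treated pair at 523.6 and 270.7 FPKM around the GV pair at 340.4 and 348.9 FPKM. Nuclear pore and transport genes had 29 of 45 entries lower (64.4%) and 11 held (24.4%), beside 69.8% and 18.1% of all entries. Kpna2, an importin, fell from 727.5 and 504.8 FPKM to 147.6 and 176.0 FPKM, and Ipo8 was held at 85.5 and 89.5 FPKM against 78.5 and 69.0 FPKM. The Bcl2 and ferritin list was split between Bcl2l10 and Ftdc1, a ferritin-domain gene, at 1782 and 1925 FPKM in GV and 520.8 and 331.2 FPKM with BYBX.

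In total FPKM, 19 of the 45 lists took a smaller share in both BYBX-treated libraries than in both GV libraries, 14 a larger share and 12 overlapped. These counts were not tested. The 14 include the small RNA list, whose sum was 0 in both GV libraries and 0.172 and 676.7 FPKM with BYBX, almost all of it Mir6516 in BYBX_2. A share within a library does not depend on the spike-in scale. Among the larger gains were those of the Obox list and of the APC/C list, the latter from 1.11% and 1.27% to 1.98% and 1.67%, and among the larger losses those of the ribosomal proteins and of the elongation factors, the latter from 0.477% and 0.473% to 0.268% and 0.321%. A share can rest on a single transcript. Pttg1 measured 3099 and 3214 FPKM of the 5434 and 5112 FPKM of the APC/C list in GV. With BYBX it measured 3404 and 2316 FPKM of 4893 and 3363 FPKM. Btg4 in the CCR4-NOT list and Bcl2l10 in the Bcl2 and ferritin list also made up most of the sum in these libraries. The median difference of the Bcl2 and ferritin list was -1.37, beside -0.96 over all entries.

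**Figure D4:**
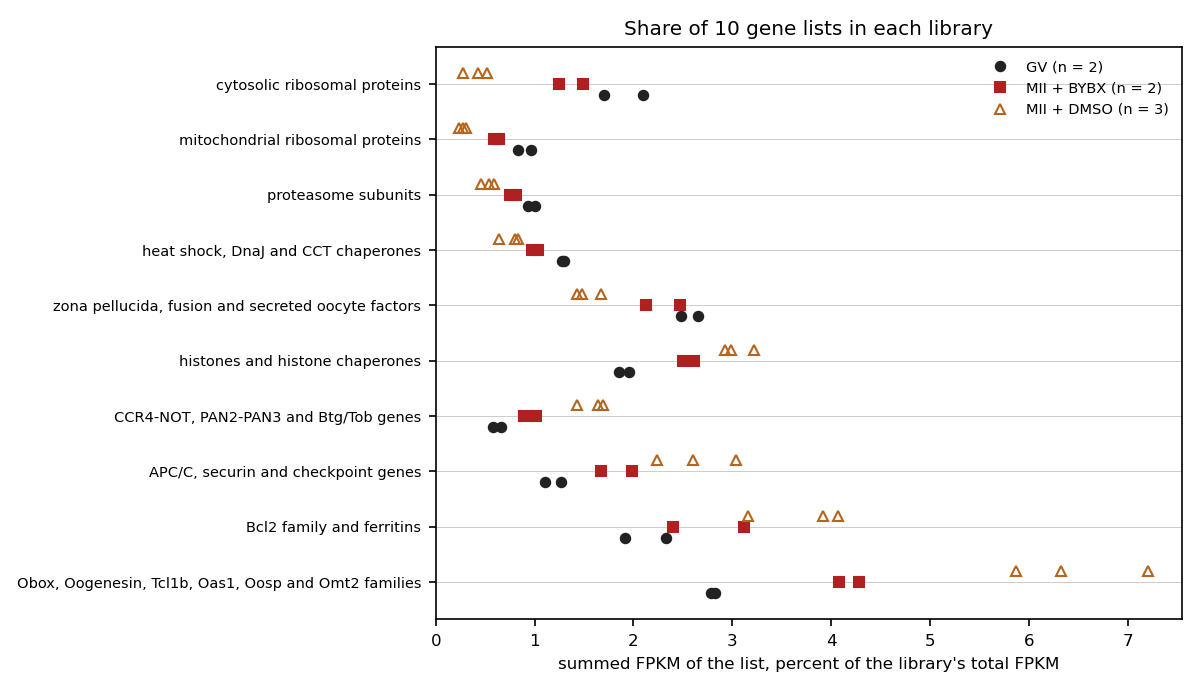
Each marker is the summed FPKM of a gene list in one library as a percentage of that library's total FPKM. For the 5 lists at the top both BYBX-treated libraries are below GV, and for the 5 at the bottom both are above it. The shares of the APC/C, CCR4-NOT and Bcl2 and ferritin lists rest mostly on Pttg1, Btg4 and Bcl2l10, in that order. The gap is small for the Bcl2 and ferritin list (2.33% in GV_2 against 2.40% in BYBX_2). It is smaller still for the zona pellucida list (2.48% in GV_2 against 2.47% in BYBX_2).

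A further 3 genes chosen for naming fell. Reep2, an endoplasmic reticulum shaping protein gene, measured 148.2 and 88.6 FPKM in GV and 39.4 and 28.4 FPKM with BYBX (-1.75), and Tcf25 measured 40.1 and 29.5 FPKM against 11.1 and 8.28 FPKM (-1.74). Hexdc fell by 0.76 from 2.55 and 2.25 FPKM, with a difference of 0.27 after median centring. In every case both treated libraries were below GV. Predicted rG4 motifs of Pabpn1l (3′ UTR, chr8:122619582-122619598, minus strand) and Tcf25 (3′ UTR, chr8:123400951-123400971, plus strand) are printed because both transcripts were chosen for naming and carry a motif, with G runs in capitals.
Pabpn1l: GGGcaGGGaGGGGaGGG
Tcf25: GGGcaGGGactttGGGaGGGG

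Sequence features that the calls did not use were then set beside them. Of the tested entries, 9390 (96.1%) matched a coding transcript of GENCODE, and the longest one gave the features. The calls differed in share between transcripts with and without a CPE in the last 100 bases. Of 1818 such entries, 54.7% were lower and 27.0% held with a median of -0.70, and of 7163 without one, 73% were lower and 16.3% held with a median of -1.0. Read the other way, a CPE was present in 20.2% of all 8981 entries with a 3′ UTR of 100 bases, in 12% of those that fell at least 4-fold, in 29.7% of held entries and in 37.1% of held entries of at least 10 FPKM. The AATAAA signal followed the same order, at 66.5%, 49.0%, 76.6% and 78.4%. A CPE of the form TTTTAAT can share bases with AATAAA. In the DMSO comparison, which shares the GV libraries, the medians were -1.24 with a CPE and -1.84 without one.

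The contrast by CPE was present in every quintile of GV level and of transcript length. In the highest quintile of GV level, 24.4% of entries with a CPE and 10.0% of those without one were held, and 53.1% and 77.4% were lower. By length, the held shares were 26.8% with and 10.3% without a CPE in the shortest quintile, and 28.9% and 27.6% in the longest. Among the lists, a CPE was found in 9 of 24 entries of the Obox list (37.5%) and 20 of 61 of the histone-modifying enzymes (32.8%), against 6 of 68 of the oxidative phosphorylation subunits (8.82%) and 4 of 39 of the initiation factors (10.3%). Other lists did not follow this order. The share was 35.7% for the Bcl2 and ferritin list, 30.2% for DEAD and DEAH box helicases and 27 of 90 entries for DNA replication and repair genes, whose medians were below that of all entries, and 10.0% for both the hnRNP and SR proteins and the deubiquitinases, whose medians were above it. These shares describe the transcripts, and no test was made of them.

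**Figure D5:**
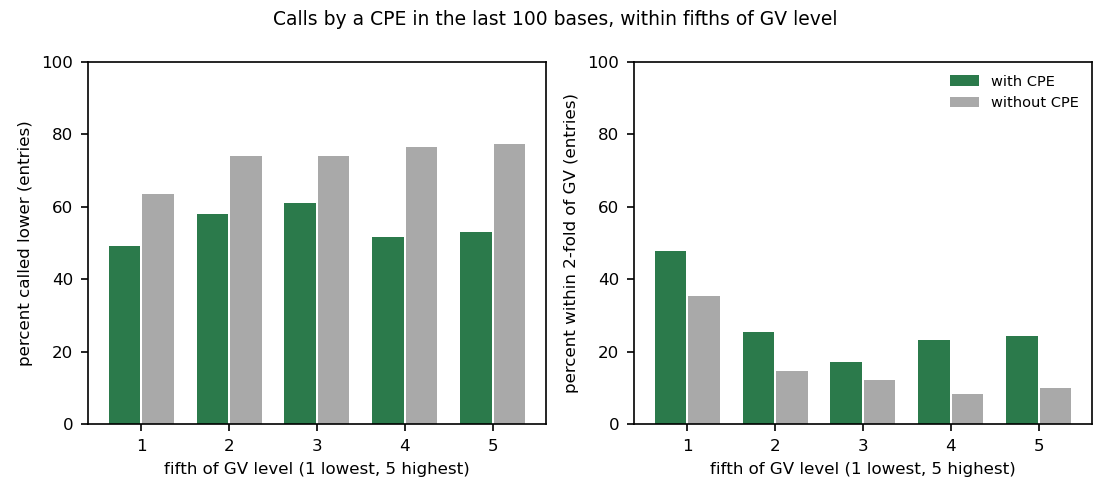
Bars give the percentage of entries called lower (left) and held within 2-fold of GV (right) among transcripts with and without a CPE in the last 100 bases, in quintiles of GV level. In each quintile the bar for transcripts with a CPE is lower on the left and higher on the right, for example 24.4% against 10.0% held in the highest quintile.

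The shares also differed by predicted rG4 motif, and the motif went with transcript length. Lower entries were 65.2% of the 756 with a motif in the 5′ UTR, 59.2% of the 309 with one in the coding sequence and 57.2% of the 877 with one in the 3′ UTR, against 71.9% of the 7619 without a motif. The medians were -0.82, -0.80, -0.75 and -1.0. The median lengths were 3572 bases, 3330 bases and 4171 bases with a motif and 2819 bases without. Within the quintiles of length, the share of lower entries was 66.3% with and 76.3% without a motif in the shortest and 55.5% with and 62.5% without in the longest. Among all entries, difference and transcript length had a Spearman rho of 0.23 and difference and GC content of -0.03, across genes, which share the same 4 libraries and are not independent replicates. Entries that fell at least 4-fold had a median length of 2025 bases and held entries of 3532 bases. Held entries of at least 10 FPKM had a median length of 2897 bases, beside 2981.5 bases of all matched entries. An rG4 motif was present in 18.7% of them and in 18.9% of all matched entries. Both features were not computed for all entries of at least 10 FPKM, so held entries were not compared with others at the same level.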

How the data were processed

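RNA of 7 libraries of 10 mouse oocytes each was sequenced by Smart-seq2. The authors trimmed reads with Trim Galore 0.6.7, aligned them with HISAT2 2.2.1 to mm10 and estimated FPKM with Cufflinks 2.2.1 on UCSC gene models, per their methods and processing notes. The deposited FPKM had been scaled to ERCC spike-ins and between batches to the GV samples, with factors not given in the sources used here, so a batch effect and a scaling error cannot be told apart from the common change. The depth of each library is unknown, and intervals cover the spread between libraries only. Replicates were separate pools of oocytes, and p-values measure the spread between these libraries, which may be technical.

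Of 25912 entries, 4 with a missing value were left out, and 333 names were listed more than once. Values were analysed as log2(FPKM + 1), so differences of low entries are understated, for the 9770 entries whose mean of the GV and BYBX group means was at least 1 FPKM. limma 3.58.1 in R 4.3.3 fitted 3 group means with an intensity trend to all 7 libraries, of which the DMSO libraries only shared the estimate of spread. P-values were two-sided and Benjamini-Hochberg adjusted over all entries, with a threshold of 0.05. Entries whose 95% interval lay inside 2-fold were called held. Every adjusted p given is from this fit, and the fit was tested on simulated data.

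Members, gene lists and tests were chosen with earlier results of these data known. Named genes were the 10 largest falls and 8 largest rises among non-overlapping entries whose higher group mean reached 10 FPKM, the 8 most abundant held entries, the lowest, highest and most abundant member of each list, and a further set (Zar1, Btg4, Cnot7, Cnot8, Ccnb1, Pabpn1l, Dhx36, Gdf9, Reep2, Tcf25 and Hexdc), of which Gdf9, Reep2 and Tcf25 are not named in the study's text. Other list members were chosen after their values were seen. A few genes that this rule names are not reported here. Sequence features came from the longest coding transcript of GENCODE vM21 (GRCm38, the build of the files). Alternatives varied the pseudocount, the minimum level, the scaling, the libraries included, the replicate block and the trend. Plots were drawn with matplotlib 3.10.9, and summaries were computed with pandas 2.3.3 and numpy 2.4.6 under Python 3.11.15.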

Additional observations from a re-analysis of the deposited data

How the results depend on the processing

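The size of the common change depended on the deposited spike-in scale. With libraries set to the same total FPKM, 1287 entries were lower, 484 higher and 4865 within 2-fold, with a median difference of -0.18, and after median centring, which sets the common change to 0, 1262 were lower, 1512 higher and 5144 within 2-fold. Of the 28 rises, 26 were shared with the first of these and 27 with the second. A pseudocount of 0.1 FPKM gave a median of -1.20 and 763 entries within 2-fold. A minimum of 5 FPKM left 6169 entries, of which 4348 were lower, 15 higher and 892 within 2-fold, and no minimum gave 59 higher and 9481 within 2-fold of 18180 entries, with a median of -0.41. At least 2-fold, 17 entries rose, and a margin of 1.5-fold held 100. Leaving out 1 library gave 5069 to 7011 lower, 14 to 111 higher, 824 to 1794 within 2-fold and medians of -1.11 to -0.83. The lower and higher counts were 6308 and 39 in a fit of only the 4 libraries compared and 6763 and 22 without the intensity trend.

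The deviations of libraries with the same replicate number correlated at -0.31 between GV and BYBX, at 0.47 between GV and DMSO, and at -0.60 and -0.36 between DMSO and BYBX, so the numbers were not taken to pair the samples. With the replicate block, 6436 entries were lower, 30 higher and 1453 within 2-fold, and with the numbers crossed, an alternative chosen after seeing the data like the one without repeated names, 7124, 57 and 2078.

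Of the 108 genes named with values, 37 changed sign at the same total and 39 after median centring. In log2 units at the same total and after centring these were Bcl2l10 0.92 and 0.95, Pttg1 0.82 and 0.85, Zbed3 0.78 and 0.81, H1f8 0.85 and 0.88, Btg4 0.72 and 0.75, AU022751 0.71 and 0.74, Rfpl4 0.78 and 0.81, Zar1 0.19 and 0.22, Cnot7 0.56 and 0.60, Cnot8 0.71 and 0.75, Ccnb1 0.24 and 0.27, Pabpn1l 0.24 and 0.28, Dhx36 0.16 and 0.37, Gdf9 0.29 and 0.32, Rpl10 0.10 and 0.14, Rps15a 0.62 and 0.76, Npm1 0.53 and 0.57, Ldhb 0.75 and 0.79, Prdx1 0.50 and 0.53, Psmd3 0.94 and 0.99, Hnrnpf 0.77 and 0.81, Hnrnph1 0.88 and 0.96, Eif4a1 0.72 and 0.75, Eif4a2 0.64 and 0.68, Astl 0.73 and 0.77, Khdc1c 0.62 and 0.90, Tcl1b1 0.93 and 0.96, Tcl1b2 0.63 and 0.66, Tcl1b4 0.66 and 0.69, Obox5 0.88 and 0.91, Oosp3 0.95 and 0.98, Oas1d 0.88 and 0.91, Cdc20 0.96 and 0.99, Bub1b 0.76 and 0.80, Mad2l1 0.78 and 0.84, Mos 0.75 and 0.78 and Ipo8 0.73 and 0.78. After centring alone they were Hexdc 0.27 and Fbxw28 0.0169. Signs also changed when single libraries were left out, with ranges of Bcl2l10 -0.43 to 0.28, Pttg1 -0.45 to 0.11, Zbed3 -0.69 to 0.26, H1f8 -0.31 to 0.0209, Bpgm -0.32 to 0.44, AU022751 -0.63 to 0.0731, Cnot8 -0.55 to 0.00359, Eif1 -0.38 to 0.57, Psmd3 -0.29 to 0.22, Hnrnph1 -0.35 to 0.23, Eif4a1 -0.61 to 0.0729, Ddx17 -0.14 to 0.64, Pabpn1 -0.39 to 1.56, Khdc1c -0.83 to 0.59, Tcl1b1 -0.27 to 0.14, Obox1 -0.21 to 0.24, Obox5 -0.31 to 0.0839, Oosp1 -0.24 to 0.37, Oosp3 -0.14 to 0.0601, Oas1d -0.34 to 0.10, Cdc20 -0.33 to 0.27, Bub1b -0.46 to 0.00779, Tubb3 -0.21 to 0.37, Kmt2c -0.0512 to 0.11 and Med30 -0.35 to 0.60. The cause was not tested. Depth is unknown for FPKM, so values near 1 FPKM are the least certain.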

Other observations

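A few entries outside the gene lists differed between libraries of the same group. Rn45s, the 45S pre-ribosomal RNA entry, measured 2854 and 1889 FPKM in GV and 0 and 1968 FPKM with BYBX, and 2125, 0 and 0 FPKM with DMSO. It did not pass the test (adjusted p = 0.133, limma). The homeobox gene Cphx2 was listed 3 times, with differences of 1.53, 1.15 and 1.04, and its most expressed entry measured 7.46 and 0.068 FPKM in GV and 1.56 and 16.4 FPKM with BYBX, so its libraries disagreed within each group.

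Some rises were of low level. Gstk1, a mitochondrial glutathione transferase, was listed at 0 in both GV libraries and at 2.42 and 2.47 FPKM with BYBX, beside 0.677, 0.819 and 1.29 FPKM with DMSO. Hamp, which encodes the iron regulator hepcidin, measured 0.686 and 0.816 FPKM in GV and 4.78 and 1.94 FPKM with BYBX. These genes were chosen after their values were seen.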
